A study of Mus musculus with 32 samples.

Results

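The liver X receptors and the genes through which cells hand sterols to lipoproteins were followed in the brains of mice that lack Dhcr7, which makes cholesterol from 7-dehydrocholesterol. The 8 genes, of 55291 gene symbols in the count tables, were taken by symbol: the receptor genes Nr1h3 (LXR alpha) and Nr1h2 (LXR beta) and the known receptor targets Abca1, Abcg1, Abcg4, Mylip, Apoe and Lpcat3. All 8 symbols were found at each stage, and all 8 passed the filter on low counts in every comparison. Polyadenylated RNA of whole brain was sequenced as 150 bp read pairs in 32 libraries of strain C57BL/6J, labelled Dhcr7+/+ (WT) or Dhcr7-/- (KO), taken at an embryonic day (E12.5 or E14.5 or E16.5) or at birth (PND0), with 4 libraries in each of the 8 groups. No treatment is labelled in any group, and the labels give neither the deleted exons nor the litter or sex of a brain. They do not say that the libraries of a group came from separate animals, so p-values measure only the spread between these samples, which may be technical.

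Liver X receptors are nuclear receptors that sit on DNA as pairs with a retinoid X receptor and respond to oxidised sterols and to some sterols made on the way to cholesterol. Their targets move cholesterol out of cells through ATP-driven transporters, supply lipoprotein particles that carry it, and lower its uptake. Astrocytes are the main source of Apoe-containing particles in brain, and neurons take these particles up. A matching set of genes under SREBP-2, which serve sterol synthesis and uptake, is known to answer in the opposite direction to sterol supply.

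Libraries held 13.87 to 28.32 M counts in total. Levels are given as CPM, counts per M counts of the library, and the 3 counts that a count of 0 allows came to between 0.106 and 0.216 CPM by library. That limit covers counting error only. Dhcr7 was lower in every KO library than in every WT library of its stage. By the edgeR fold change it stood at 32.2%, 18.9%, 27.1% and 16.2% of WT in stage order. At E12.5 its edgeR adjusted p of 0.00824 rose to 0.0625 and 0.0558 without KO replicate 2 and 4. Neuron markers summed to between 1863 and 5396 CPM over the libraries, with none of the 6 at 0. In the ribosomal RNA gene CT010467.1, E12.5 KO replicate 1 held 5.64% of its counts and E16.5 WT replicate 1 held 3.75%, each above the other libraries of its stage, and E14.5 KO replicates 3 and 4 held 2.68% and 2.55% against at most 1.17% in the others. The same measure ran from 1.80 to 2.78% in WT and from 1.16 to 2.09% in KO at PND0. Ddx3y, a Y chromosome gene, measured 51.6 to 65.1 CPM in E12.5 WT replicate 1 and KO replicates 2 and 4, and 0 in the others of that stage. At E16.5 it measured 42.8 to 50.7 CPM in WT replicates 1 and 3 and KO replicate 4, and at most 0.448 CPM in the others. By this gene, sex was not balanced between the genotypes at these stages. In bulk tissue, fewer cells of a type and less RNA per cell cannot be told apart.

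The promoter windows of RefSeq (GRCm38.p6, 250 bases before to 50 after a transcript start) were searched for the direct repeat to which pairs of LXR and retinoid X receptor are known to bind. The motif was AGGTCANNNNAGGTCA on both strands, no other motif was searched, and mismatches were counted over its 12 fixed bases. Windows were held for 6 of the 8 genes, 9 windows in all, and none for Abcg1 or Abcg4. The stretch of 150 bases just upstream of the Abca1 start, chr4:53159896-53160045 on the minus strand, is shown because it holds the nearest match of the 6 genes, in capitals.

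Abca1: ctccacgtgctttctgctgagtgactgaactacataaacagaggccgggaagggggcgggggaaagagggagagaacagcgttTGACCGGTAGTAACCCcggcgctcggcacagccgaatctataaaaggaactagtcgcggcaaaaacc

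The nearest match in each gene's windows (for Apoe, 1 of 3 equally near) is written on the strand of the match, with matching fixed bases in capitals, so that the 6 genes can be read against each other.
Abca1: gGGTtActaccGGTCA
Lpcat3: AGGTaggaagAGGgCg
Nr1h2: AGtTCcggaaAGtTCt
Nr1h3: AGGTCccggcAcGgCc
Apoe: cctTCAcagcAGGgCA
Mylip: AGtTCccgggAGcTac

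Abca1 had 3 mismatches, at 67 bases before the start on the strand opposite to the gene. Lpcat3, Nr1h2, Nr1h3 and Apoe had 4 and Mylip 5. Of 32851 windows of the same length, 21.9% held a match with up to 3 mismatches and 76.9% one with up to 4, so the matches of the other genes are of a kind that most windows hold. A match is a run of letters, not a site of binding.

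The first question was how strongly each gene is expressed in the normal brain between E12.5 and birth. Levels of different genes are compared per length, as CPM per kb of annotated exon (means of 4 WT libraries). Apoe, the lipoprotein apolipoprotein of the brain, was the highest of the 8 at each stage, with 40.9, 35.7, 85.0 and 150.0 CPM per kb in stage order. The receptor gene Nr1h2 followed with 21.2, 19.2 and 15.5 CPM per kb at the embryonic stages, and at PND0 it came after Abcg4 (15.8) with 11.1 CPM per kb. Nr1h3, the other receptor gene, was the lowest at each stage with 0.571, 0.685, 0.863 and 0.663 CPM per kb. In each of these places the lowest and highest libraries did not overlap with those of the next gene in order.

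The middle places were closer together. At E12.5 Lpcat3 (7.18 CPM per kb), Mylip (5.70), Abca1 (5.02) and Abcg4 (4.67) overlapped in turn, and Abcg1 (3.04) lay apart below them. At E14.5 Abcg4 (8.37) and Lpcat3 (6.55) were separate, Abcg1 (4.35) and Abca1 (4.22) overlapped, and Mylip (2.73) lay below. At E16.5 Abcg4 (8.39), Abca1 (7.46) and Lpcat3 (6.21) overlapped in turn, as did Mylip (3.12) and Abcg1 (2.83). At PND0 Lpcat3 (7.71) stood apart, while Abca1 (5.81), Abcg1 (5.06) and Mylip (4.93) overlapped. Taking the length of the longest transcript in place of all exons raised Nr1h2 to 35.6 and Apoe to 62.0 CPM per kb at E12.5. It also put Abcg4 (6.09) above Mylip (6.02) and Abca1 (5.07) at E12.5. At E16.5 Lpcat3 (8.55) came above Abca1 (7.53) and Abcg1 (3.55) above Mylip (3.3), and at PND0 Abcg1 (6.34) above Abca1 (5.86). Apoe remained the highest and Nr1h3 the lowest at each stage.

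**Figure D1:**
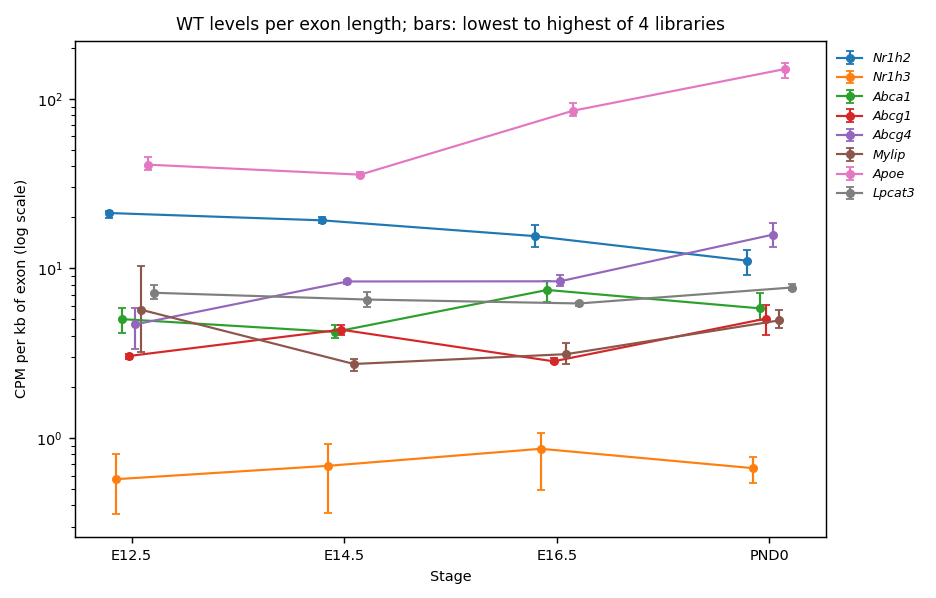
WT levels of the 8 genes by stage, as CPM per kb of exon on a log axis; points are means of 4 libraries, bars run from the lowest to the highest library, and points are shifted sideways for legibility. Apoe rises to 150.0 and Abcg4 to 15.8 at PND0, Nr1h2 falls from 21.2 to 11.1, and Nr1h3 stays below 1 CPM per kb in the mean.

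Between neighbouring stages in WT more than 50% of the genes tested were called. In the 3 steps 57.8%, 57.5% and 53.2% of all genes tested passed an adjusted p of 0.05. The test was edgeR's quasi-likelihood test with Benjamini-Hochberg adjustment over all genes tested, as for every adjusted p below unless another test is named. Of the 8 genes, 6, 4 and 7 passed, and each alternative analysis of the first step called fewer than 6. A call is thus common in these steps, and each stage was deposited as its own table, so stage and table cannot be told apart.

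Nr1h2 (chromosome 7, 44549616 to 44553951, minus strand) fell with each step, by 0.16, 0.31 and 0.54 on the log2 scale (adjusted p 0.0281, 0.00336 and 0.0016). Its mean WT level went from 71.1 ± 3.42 CPM at E12.5 to 64.5 ± 3.03, 51.9 ± 6.66 and 37.2 ± 5.94 CPM (SD, n = 4 each). The first of these steps is a small one whose groups overlapped, and 11 of 14 alternative analyses did not call it. Nr1h3 (chromosome 2, 91184061 to 91202834, minus strand) had means between 1.44 and 2.17 CPM, on 15 to 55 counts per WT library, and 0 of the 3 steps passed.

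Abcg1 (chromosome 17, 31057675 to 31117988, plus strand), a half-transporter that moves cholesterol and other sterols towards high-density lipoprotein, went up, down and up again. Its WT mean was 22.2 ± 0.660 CPM and then 31.8 ± 1.79, 20.7 ± 0.732 and 37.0 ± 6.33 CPM, with log2 steps of 0.50, -0.61 and 0.78 (adjusted p 0.000113, 2.69e-06 and 7.63e-05). Abca1 (chromosome 4, 53030787 to 53159895, minus strand), the full transporter that loads lipid onto apolipoproteins, ran the other way, with 52.0 ± 7.45, 43.8 ± 3.33, 77.3 ± 10.3 and 60.2 ± 10.5 CPM and steps of -0.26, 0.83 and -0.42 (adjusted p 0.0457, 2.33e-06 and 0.0125). Abca1's first step was not called in 10 of 14 alternative analyses.

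Abcg4 (chromosome 9, 44273188 to 44288615, minus strand), a close relative of Abcg1 expressed mainly in the nervous system, rose from 24.3 ± 5.43 CPM at E12.5 to 43.6 ± 1.09 at E14.5, measured 43.7 ± 3.19 at E16.5 and rose to 82.2 ± 12.1 at PND0. The called steps were 0.83 (adjusted p 0.000549) and 0.85 (7.78e-06). Apoe (chromosome 7, 19696109 to 19699188, minus strand) went from 87.4 ± 7.73 and 76.2 ± 1.99 CPM to 181.8 ± 13.9 and 320.8 ± 28.9 CPM, with steps of -0.21, 1.26 and 0.76 (adjusted p 0.0157, 4.12e-10 and 2.99e-06). The first of these was -0.01 (adjusted p 0.924) with offsets for transcript length and was also lost in the fit of all 32 libraries (0.369) and without E14.5 WT replicate 4 (0.0523). The summed level of 8 radial glia and astrocyte markers, the cells that make most brain Apoe, had WT medians of 594.0, 696.2, 951.8 and 1095 CPM over the same stages, and its part in the rise of Apoe was not tested.

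Mylip (chromosome 13, 45389742 to 45412022, plus strand) encodes a ubiquitin ligase that marks lipoprotein receptors for breakdown. It fell from E12.5 to E14.5 by 1.08 (adjusted p 0.0224) and rose from E16.5 to PND0 by 0.60 (adjusted p 0.00149). The first step rested in part on E12.5 WT replicate 1, which measured 33.2 CPM against 10.4 to 15.5 in the other WT libraries of the stage, and without it the step was -0.62 (adjusted p 0.00165). That library also had the highest meningeal marker sum of its group, 2047 CPM against 946.3 to 1385. Without a filter on low counts the step had an adjusted p of 0.0826. Lpcat3 (chromosome 6, 124663027 to 124704418, plus strand), which builds polyunsaturated phospholipids, had WT means from 20.3 to 25.2 CPM. It rose by 0.26 into PND0 (adjusted p 0.0303), a call that 6 of 14 alternative analyses lost.

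The main question was which of these genes differ in the KO brain. Abcg1 fell at all 4 stages and Abca1 at 3, and no other member passed the threshold at any single stage. Counted per stage, 1, 2, 2 and 2 of the 8 genes were called, all lower in KO, where 0.0177%, 0.527%, 0.0462% and 1.44% of all genes tested were called and 0.0118%, 0.308%, 0.0173% and 1.03% were called lower. Every KO library lay below every WT library for 3 of the 8 genes at each stage, as it did for 1.03%, 2.61%, 3.58% and 6.27% of all genes tested. The 8 genes were chosen with earlier results of these data known. These shares, and those of the average below, are therefore no independent test of the set. The median log2 fold change of the 8 genes was -0.15, -0.13, 0.00 and -0.09 in stage order, with medians between -0.00058 and 0.00311 over all genes tested.

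**Figure D2:**
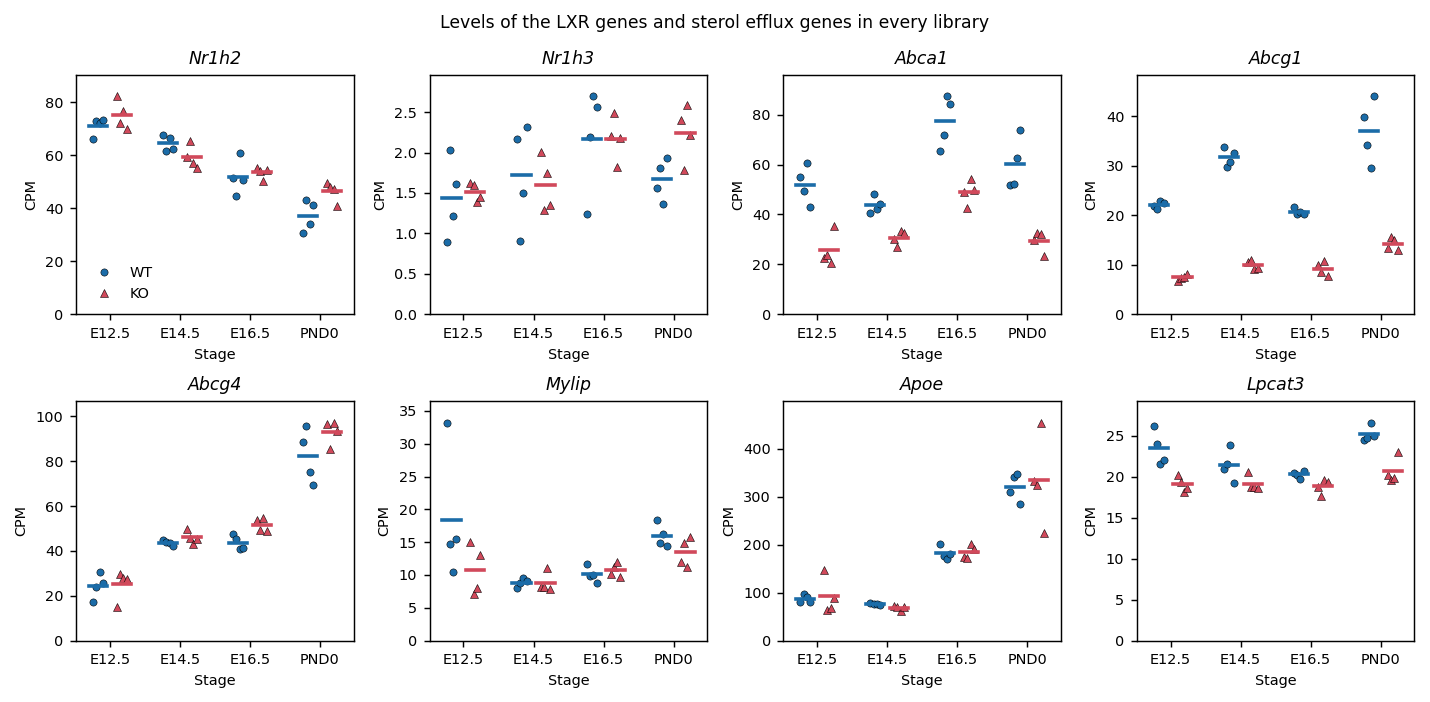
Level of each gene in every library, in CPM on linear axes from 0, by stage; circles are WT, triangles are KO and horizontal bars are group means of 4 libraries. KO triangles lie below all WT circles at each stage for Abca1 and Abcg1, and the groups overlap at each stage for both receptor genes and for Mylip.

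Abcg1 had the largest KO difference of the 8 genes at each stage. At E12.5 the WT libraries measured 21.9, 21.4, 22.9 and 22.5 CPM and the KO libraries 6.80, 7.41, 7.46 and 8.17 CPM. E14.5 values were 33.7, 29.7, 30.9 and 32.7 CPM in WT and 10.5, 11.1, 9.20 and 9.27 CPM in KO. Every KO library was therefore well under the lowest WT library at these stages. For E16.5 the values were 21.7, 20.2, 20.6 and 20.2 CPM in WT and 9.95, 8.48, 10.7 and 7.81 CPM in KO. On the day of birth they were 39.9, 34.3, 29.6 and 44.1 CPM in WT and 13.4, 15.6, 14.99 and 12.97 CPM in KO. The groups again did not touch, and the spread within WT was widest at PND0.

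As a share of WT, Abcg1 stood at 33.1%, 31.8%, 44.5% and 38.5% in stage order. The log2 fold changes were -1.59 (SE 0.104, adjusted p 0.000913), -1.65 (SE 0.0828, 1.97e-18), -1.17 (SE 0.106, 0.000149) and -1.38 (SE 0.140, 0.000285). At E12.5 Abcg1 was 1 of only 3 genes called of 16948 tested. Leaving out any single library kept the call at each stage. At PND0 the call was lost when the ribosomal RNA level was added as a covariate (-1.16, adjusted p 0.205), a fit in which 2 of all genes tested were called.

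Abca1, whose upstream stretch is printed with the motif matches, was the second gene that fell. E12.5 WT libraries measured 55.0, 49.6, 60.5 and 43.0 CPM and KO libraries 22.4, 23.8, 20.6 and 35.6 CPM. The E14.5 libraries held 40.4, 48.2, 42.2 and 44.3 CPM in WT and 30.1, 27.1, 33.2 and 32.4 CPM in KO. KO was lower in 4 of 4 libraries at both stages, with KO replicate 4 nearest to WT at E12.5. By E16.5 WT held 65.6, 71.9, 87.4 and 84.4 CPM and KO 48.8, 42.7, 54.1 and 49.9 CPM. PND0 gave 51.7, 52.4, 62.6 and 74.0 CPM in WT and 29.6, 32.4, 32 and 23.5 CPM in KO. Here too the ranges of the genotypes were separate.

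Abca1 stood at 48.5%, 69.9%, 63.0% and 48.9% of WT, with log2 fold changes of -1.04 (SE 0.185, adjusted p 0.528), -0.52 (SE 0.0659, 1.82e-06), -0.67 (SE 0.0944, 0.034) and -1.03 (SE 0.136, 0.00297). The E12.5 difference did not pass in the fit of that stage, where the biological coefficient of variation was 19.9% against 6.25% at E14.5. DESeq2 called it (adjusted p 0.000515), and so did 1 fit of the 32 libraries together (0.00018). The E16.5 call was lost whenever a library other than WT replicate 1 was left out (adjusted p 0.0503 to 0.215), with the sex-gene covariate (0.119) and in the fit of all 32 libraries (0.187). The E14.5 call was lost in that same fit (0.995), and the PND0 call with the ribosomal RNA covariate (0.606).

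Lpcat3 was lower in KO by a small amount that no single stage called. KO libraries lay below all WT libraries at E12.5 (18.2 to 20.2 CPM against 21.6 to 26.2), E16.5 (17.6 to 19.7 against 19.7 to 20.7) and PND0 (19.6 to 23.1 against 24.5 to 26.6). The gap at E16.5 was between 19.66 and 19.70 CPM, and at E14.5 the ranges overlapped. The log2 fold changes were -0.32, -0.16, -0.11 and -0.28, with adjusted p 0.875, 0.586, 0.604 and 0.19. Only 1 joint fit of the 32 libraries called the PND0 difference (0.0293).

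Averaged over the 4 stages in 1 fit of all 32 libraries, Lpcat3 fell by 0.21 (SE 0.0400, adjusted p 0.00461) to 86.3% of WT. In that fit Abcg1 fell by 1.44 (SE 0.0542, adjusted p 2.11e-19) and Abca1 by 0.81 (SE 0.0701, adjusted p 3.57e-09). These 3 of 8 genes were called lower where 0.558% of all genes were called and 0.159% called lower, and the average shares its libraries with the fits by stage. Lpcat3 missed the threshold in the average without a filter on low counts (adjusted p 0.0574) and with PND0 left out (0.1). Lpcat3 shares 334 nt, or 10.2% of its exon length, with Emg1 on the opposite strand. Whether counting used strand is not given in the sources used here, and the log2 fold change of Emg1 itself was 0.04 in the average (adjusted p 0.819).

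**Figure D3:**
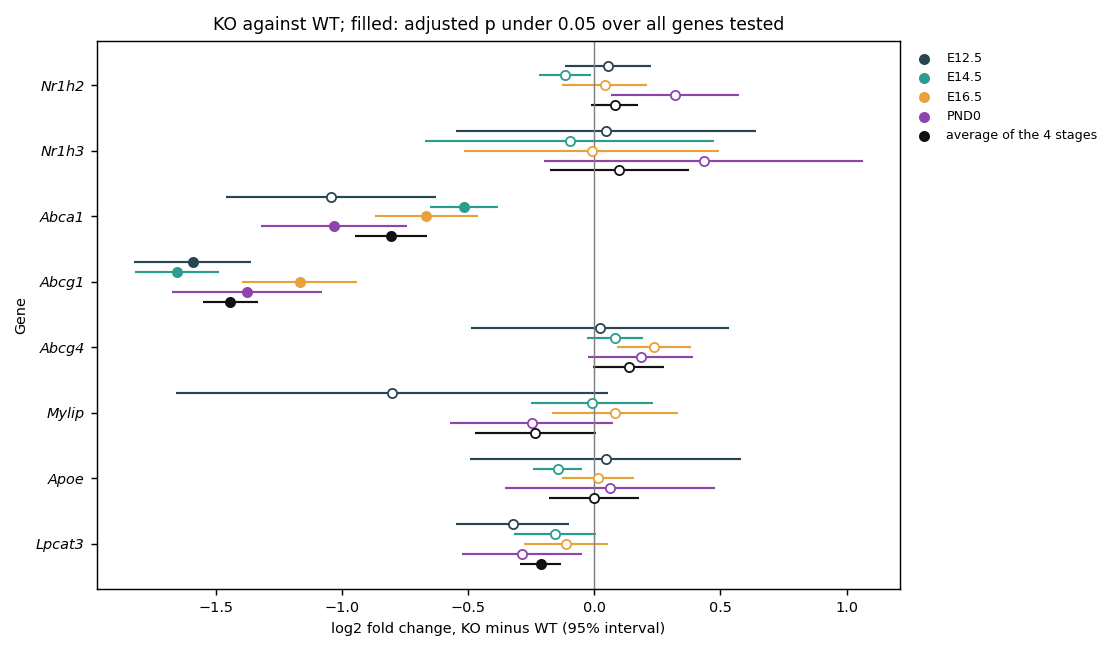
Log2 fold change of KO against WT for each gene at each stage and averaged over the 4 stages; lines are 95% intervals of the edgeR fit, and filled points have an adjusted p under 0.05 over all genes tested. Filled points are those of Abcg1 at 4 stages, Abca1 at all but E12.5, and Abcg1, Abca1 and Lpcat3 in the average.

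The receptor genes themselves were not called at any stage. Nr1h2 had log2 fold changes of 0.05, -0.12, 0.04 and 0.32 (adjusted p 0.928, 0.501, 0.881 and 0.168). At PND0 its KO libraries measured 49.4, 48.0, 47.3 and 40.6 CPM and its WT libraries 30.6, 43.1, 33.9 and 41.2 CPM. The ranges overlap through KO replicate 4, and only the fit of all 32 libraries called the difference (adjusted p 0.0367). Averaged over stages the 95% interval was -0.01 to 0.17. For Nr1h3 the differences were 0.05, -0.10, -0.01 and 0.43, and the interval of the average was -0.18 to 0.37. At 15 to 55 counts per library, a difference in Nr1h3 inside that interval is not excluded. Nr1h3 shares 34 nt of exon with the transcript Gm13783.

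Averaged over the stages, Apoe was the target nearest to WT and Abcg4 lay above it, with neither called. Apoe had log2 fold changes of 0.04, -0.15, 0.01 and 0.06, and the average over stages had a 95% interval of -0.18 to 0.18. At E14.5 its KO libraries (73.0, 69.3, 62.2 and 70.4 CPM) all lay below its WT libraries (78.7, 76.8, 75.4 and 74.1 CPM), with an adjusted p of 0.264. Radial glia and astrocyte markers were separate in the same direction there, with sums of 661.1 to 683.9 CPM in KO against 688.4 to 709.0 CPM in WT, and their part in the Apoe values was not tested. The single library that most moved Apoe was E12.5 KO replicate 1, at 147.3 CPM against 63.9 to 88.8 CPM in the other KO libraries, and without it the E12.5 difference was -0.28.

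For Abcg4 the log2 fold changes were 0.02, 0.08, 0.24 and 0.18 (adjusted p 0.991, 0.717, 0.293 and 0.345). E16.5 KO libraries (54.0, 49.2, 54.6 and 49.0 CPM) all lay above the WT libraries (47.5, 45.2, 40.8 and 41.4 CPM), as did those of 2.87% of genes tested at that stage. In the other stages the genotypes overlapped. Averaged over stages Abcg4 measured 0.14 with a 95% interval from -0.0047 to 0.28 and an adjusted p of 0.424.

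Mylip was uneven at E12.5 and overlapped between genotypes at each stage. E12.5 WT libraries measured 33.2, 14.7, 10.4 and 15.5 CPM and KO libraries 15.1, 7.15, 8.01 and 13.1 CPM. The log2 fold change of -0.80 (SE 0.381, adjusted p 0.875) became -0.34 without WT replicate 1. In KO, the libraries with higher Mylip, replicates 1 and 4, also had meningeal marker sums of 1533 and 1967 CPM, against 413.3 and 444.4 CPM in replicates 2 and 3, and the part of these markers in Mylip was not tested. Later stages gave -0.01, 0.08 and -0.25 with adjusted p of 0.992, 0.825 and 0.413.

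Whether the KO difference changed with stage was tested as an interaction over all 32 libraries. Of the 8 genes 0 passed edgeR's quasi-likelihood test, where 5 of 19541 genes (0.0256%) did. Unadjusted p-values were under 0.05 for 3 of them, Abcg1 (0.0132), Nr1h2 (0.0177) and Abca1 (0.0269), with adjusted p of 0.267, 0.286 and 0.316. DESeq2 called 0 of the 8, where it called 346 of all genes. The share of all genes at an unadjusted p under 0.05 is not given, so the 3 cannot be read as few or many. The larger Abca1 differences at E12.5 and PND0 were thus not shown to differ from those at E14.5 and E16.5.

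Which genes did not follow Abcg1 was tested on the ratio of each gene's count to that of Abcg1 in the same library, which needs no scaling between libraries. For 7 genes at 4 stages, the log2 ratio was compared between genotypes with a two-sided exact permutation test over libraries, adjusted over the 28 comparisons. In 26 of 28 the ratio was higher in 4 of 4 KO libraries than in every WT library (exact p = 0.0286, the smallest that 4 against 4 allows, adjusted p 0.0308). Abcg1 is the denominator of each ratio and was known to have the largest fall, so any gene that changes less gives a higher ratio. Of all genes tested, 91.2%, 96.3%, 92.6% and 84.4% had every KO library above every WT library in this ratio, and for the 7 genes the count was 6, 7, 7 and 6, so the count tells nothing about these genes in particular. By stage the differences ran from 1.23 to 1.69 for Nr1h2, 1.22 to 1.79 for Nr1h3, 1.41 to 1.74 for Abcg4 and 1.19 to 1.56 for Apoe. Lpcat3 differed from Abcg1 by 1.28, 1.51, 1.07 and 1.07, so its own small fall left most of the Abcg1 difference in place.

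Abca1 came nearest to Abcg1. Its ratio to Abcg1 was higher in KO by 0.52, 1.15 and 0.52 over the embryonic stages, each with the adjusted p of 0.0308. At PND0 the difference was 0.33 with overlapping libraries (exact p = 0.0857, adjusted p 0.0889), which does not show that both genes fell alike. The other comparison that missed the threshold was Mylip at E12.5, at 0.87 (exact p = 0.143, adjusted p 0.143), where Mylip varied most between libraries. From E14.5 on, Mylip differed from Abcg1 by 1.65, 1.27 and 1.11. Adding 5 counts in place of 0.5 before the ratio changed none of the 28 calls.

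**Figure D4:**
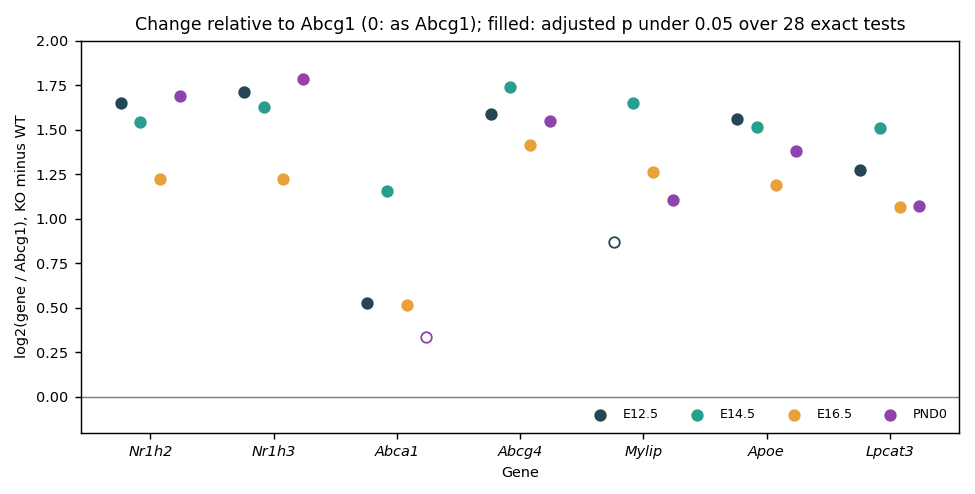
Difference between KO and WT in the log2 ratio of each gene to Abcg1 within a library, by stage; points are differences of means over 4 libraries per genotype, 0 is the change of Abcg1 itself, and filled points have an adjusted p under 0.05 over 28 exact permutation tests. All points lie above 0; the unfilled ones are Abca1 at PND0 (0.33) and Mylip at E12.5 (0.87).

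Abcg1's pattern over the 8 group means was compared with that of the 16066 genes whose mean reached 1 CPM, by the root mean square difference of centred log2 CPM. The nearest 5 were Atp10b (0.422), a lipid flippase gene, Best1 (0.535), a chloride channel gene, Dhcr7 itself (0.544), Cyp4v3 (0.556), a fatty acid hydroxylase gene, and mt-Nd4l (0.568), a mitochondrial complex I gene. Except for Dhcr7 these are low in expression, with group means from 0.600 to 2.96 CPM. Apart from Dhcr7, none of them was called in KO against WT at any single stage. In the average over stages Atp10b was called (adjusted p 0.0313), and Best1 (0.162), Cyp4v3 (0.0961) and mt-Nd4l (0.362) were not. Abca1 stood at place 11 (0.604) and Lpcat3 at 134 (0.678), while Apoe was the farthest of the 8 genes (1.02). These distances are descriptions of the same libraries and carry no test.

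Markers of cells that express these transporters were set beside the results. Summed over 9 genes, microglia and macrophage markers overlapped between genotypes at each stage, with 68.7 to 103.3 CPM in WT and 50.9 to 101.7 CPM in KO at E12.5, and 80.2 to 112.0 against 85.3 to 112.2 CPM at PND0. At E14.5 they overlapped through KO replicate 3 alone (73.2 CPM), with 61.1 to 64.2 CPM in the other KO libraries and 68.2 to 70.6 CPM in WT. In the fitted values 8 of the 9 were below WT at E14.5 and at E16.5 (medians -0.0992 and -0.106), and 4 of 9 at E12.5 and at PND0. Over 8 lists 43, 44, 45 and 44 marker entries were tested, with Ttr entered in both the choroid plexus and the liver list. By edgeR 0 were called at each stage, with 3, 6, 4 and 12 at an unadjusted p under 0.05. DESeq2 called 0, 0, 0 and 3, where it called 30, 122, 150 and 921 of all genes. The share of all genes at that unadjusted p is not given. Counts at it, here and in the lists below, thus cannot be read as few or many. The 6 blood genes were all below WT at E12.5 and E16.5 in the fitted values, with median log2 fold changes of -1.19 and -0.72. Their sums ran from 1364 to 4346 CPM in KO and 1621 to 8430 CPM in WT at E12.5, and from 533.8 to 772.6 against 667.4 to 1429 CPM at E16.5. At PND0 they summed to 234.5 to 2296 CPM in KO against 200.4 to 267.2 CPM in WT, and 5 choroid plexus genes to 599.8 to 953.5 against 298.2 to 601.1 CPM. The part of these markers in the KO differences of these stages was not tested.

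Among 14 other known LXR targets, Srebf1, Scd1 and Scd2 were called lower in KO and Arl4c higher, each at the stages given here, and the others were not called. Srebf1, the gene of the lipid synthesis factor SREBP-1, fell at E14.5 from 93.7 ± 5.15 to 63.6 ± 2.99 CPM, a log2 fold change of -0.56 (SE 0.0479, adjusted p 5.94e-11), and at PND0 from 75.8 ± 6.17 to 56.1 ± 3.97 CPM (-0.43, SE 0.0905, adjusted p 0.0292). In E12.5 and E16.5 tissue every KO library was also below every WT library, with -0.49 (adjusted p 0.589) and -0.35 (0.0599). The fatty acid desaturase genes Scd2 at E14.5 (-0.30, adjusted p 5.45e-10) and Scd1 at PND0 (-0.45, adjusted p 0.0249) fell. Arl4c, a small GTPase gene linked to sterol efflux, rose at E14.5 (0.21, adjusted p 0.000301). The E14.5 calls of Scd2 and Arl4c were lost in the fit of all 32 libraries (adjusted p 0.708 and 1.0), and that of Srebf1 was kept.

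By stage, 0, 3, 0 and 2 of the 11, 11, 10 and 10 tested genes of that list passed, with list medians of 0.01, -0.08, -0.03 and -0.05. At E12.5 and E16.5 edgeR thus called 0, with 4 and 3 genes at an unadjusted p under 0.05, and DESeq2 called 1 and 2. The PND0 calls of Srebf1 and Scd1 were lost with length offsets (adjusted p 0.0805 and 0.079), with the ribosomal RNA covariate (0.737 and 0.691) and when WT replicate 1 or 3 or KO replicate 1 or 2 was left out, for Srebf1 also WT replicate 4 (0.0556 to 0.1 for Srebf1, 0.068 to 0.0916 for Scd1). Scd1 was also not called in the fit of all 32 libraries (0.0566). In the average over stages Srebf1 (-0.45, adjusted p 5.08e-10) and Scd2 (-0.19, 0.00742) fell and Arl4c (0.22, 0.0065) rose. Without E14.5 the averages of Scd2 and Arl4c missed the threshold (0.201 and 0.111), as did that of Scd2 with offsets for transcript length (0.0562).

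Of 8 partners and coregulators, the retinoid X receptors among them, edgeR called 0 at each stage, with 0, 2, 1 and 3 at an unadjusted p under 0.05, and DESeq2 called 0, 1, 0 and 2. The smallest p belonged to Gps2 at E12.5 (0.17, adjusted p 0.875) and Ncor1 at E14.5 (-0.12, 0.0931), which encode parts of a corepressor complex, and at PND0 to Rxrb, with 65.4 ± 10.4 CPM in WT and 85.6 ± 3.36 CPM in KO (0.39, adjusted p 0.071). Cyp46a1, the neuronal cholesterol 24-hydroxylase gene, had the smallest p at PND0 among 7 genes whose enzymes make or remove sterol ligands (0.31, adjusted p 0.13). At PND0 edgeR called 0 of the 6 of them tested, with 2 at an unadjusted p under 0.05, and DESeq2 called 0.

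Other transporters, lipoprotein genes and lysosomal sterol carriers, 15 in all, had 0 calls by edgeR at each stage, with 1, 2, 5 and 4 at an unadjusted p under 0.05 and 0, 0, 0 and 2 by DESeq2. At the embryonic stages the smallest p belonged to Clu (-0.58, adjusted p 0.875) and the lipoprotein receptor genes Lrp1 (0.09, 0.33) and Scarb1 (0.28, 0.281). Npc2, which hands cholesterol out of lysosomes, came nearest, with 65.7 ± 4.82 CPM in WT and 86.3 ± 10.2 CPM in KO at PND0 (0.39, adjusted p 0.0513). It was called with the replicate block (0.041) and in 4 other alternative analyses of 16 (0.00274 to 0.0499).

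The SREBP-2 targets that were called moved in the direction opposite to Abcg1 and Abca1. Of 20 genes, 0, 14, 3 and 3 were called higher in stage order and none lower, with medians of 0.50, 0.36, 0.25 and 0.36, and in the average over stages 17 of 20 were called higher. Earlier results of these data had already shown this list's direction. Hmgcs1, at the entry of the pathway, went from 403.3 ± 5.78 to 560.1 ± 28.8 CPM at E14.5 (0.48, adjusted p 2.72e-14), and at E12.5 it measured 0.78 (adjusted p 0.264). At E14.5 the next by p were Fdft1 (0.43, adjusted p 2.82e-11) and Msmo1 (0.51, 7.22e-11), and a joint fit of the 32 libraries called none of these 3 genes there (0.401 to 0.524). At E12.5 edgeR called 0 of the list with 17 at an unadjusted p under 0.05, and DESeq2 called 12, where it called 30 of all genes. Sqle (0.34) and Mvd (0.51), both with an adjusted p of 0.034 at E16.5, lost it in 10 and 7 of 16 alternative analyses, among them those without WT replicate 3 or 4 or KO replicate 1, 2 or 3 (0.0899 to 0.227). At PND0 Mvd (0.79, adjusted p 0.0111), Insig1 (0.61, 0.0201) and Nsdhl (0.57, 0.0327) were the called genes. None of the 3 was called with the ribosomal RNA covariate (0.688 to 0.755) or without KO replicate 1 (0.0507, 0.063 and 0.0898), and Insig1 and Nsdhl were not called without WT replicate 1 (0.0594 and 0.0843). Nsdhl was also lost without WT replicate 2 or 3 or KO replicate 2 or 4 (0.055 to 0.0732).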

How the data were processed

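Gene counts per library were deposited by the authors as 1 table of raw read counts per stage. The submitters' processing notes name HISAT2, SAMtools, featureCounts, DESeq2 and mm10, with no versions; the strand setting is not given in the sources used here. Genes were matched by symbol to GENCODE M21 for positions and exon lengths. Counts were tested with edgeR 4.0.16 (R 4.3.3), by the quasi-likelihood test with TMM scaling, a filter on low counts (minimum count 10, minimum total 15) and Benjamini-Hochberg adjustment over all genes tested, with a threshold of 0.05. Each stage was fitted on its own 8 libraries, each WT step on 8 libraries, and the interaction and the average over stages on all 32. The fits were tested on simulated data first. CPM were scaled by TMM over the 32 libraries. For ratios to Abcg1, 0.5 was added to each count. Alternatives were RLE size factors, no filter, DESeq2 1.42.0, a replicate block, length offsets, sex-gene and ribosomal RNA covariates, 1 fit of all libraries, each library left out, 5 counts in the ratio, longest-transcript length and, chosen after seeing the data, each stage left out of the average.

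The members and lists were chosen with earlier results of these data known. Named genes are the 8 members, Dhcr7, in each other list at each stage the genes past the threshold (at most 4 by smallest p, or the 1 with the smallest p), and the 5 genes nearest to Abcg1 in pattern. Some genes that the rule names are not reported here. Proteins were not analysed here.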

Additional observations from a re-analysis of the deposited data

Results flagged for a closer look

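In 4 of 64 groups of 4 libraries, 1 library lay far from the other 3 in the level of a gene, where chance gives about 1 in 20 groups. Nr1h2 was lowest in E12.5 WT replicate 1 at 66.03 CPM, against 72.3 to 73.28 CPM in the other libraries of the group. Abcg4 was lowest in E12.5 KO replicate 1 at 14.91 CPM, against 27.59 to 29.52 CPM, in the library that also had the highest Apoe value and the largest share of ribosomal RNA counts of its stage. Mylip was highest in E14.5 KO replicate 3 at 11.06 CPM, against 7.925 to 8.2 CPM. Lpcat3 was highest in E14.5 KO replicate 1 at 20.55 CPM, against 18.59 to 18.79 CPM, which put it inside the WT range.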

How the results depend on the processing

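The Abcg1 fall kept its direction at each stage and in the average under every alternative run, and 26 of 28 ratios passed the threshold with 5 counts added too. The number of the 8 genes called at E12.5 became 2 with DESeq2 and in the fit of all 32 libraries, through Abca1. At E14.5 it became 1 in the fit of all 32 libraries. At E16.5 it became 1 with DESeq2, which gave Abcg1 no adjusted p, with the sex-gene covariate and in the fit of all 32 libraries, and leaving out 1 library gave 1 to 2. At PND0 it became 0 with the ribosomal RNA covariate and 4 in the fit of all 32 libraries, which added Nr1h2 and Lpcat3. For the WT step from E12.5 to E14.5 the count of 6 became 3 in the fit of all 32 libraries 3 to 5 without 1 library and 4 under each of the other settings. These are counts only and the causes were not tested.

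Signs turned in comparisons in which the gene was not called. With the replicate block Abcg4 and Apoe at E12.5 became -0.00158 and -0.0333, and Nr1h3 at E16.5 became 0.0207. With length offsets Nr1h3 at E16.5 became 0.000135 and Apoe at PND0 -0.055. With the ribosomal RNA covariate Apoe became -0.214 at E12.5 and -0.188 at PND0, and Abcg4 -0.0167 at PND0. The WT step of Abcg4 from E14.5 to E16.5 became -0.0139 without a filter and -0.000296 with DESeq2. In the average Apoe became 0.00107 with RLE size factors, 0.000698 without a filter, 0.00133 with DESeq2 and 0.0491 without E14.5. Without PND0 the averages of Nr1h2 and Nr1h3 became -0.00306 and -0.0164. Leaving out 1 library in turn gave these ranges: at E12.5 Nr1h3 -0.111 to 0.247, Abcg4 -0.101 to 0.192 and Apoe -0.283 to 0.19; at E14.5 Nr1h3 -0.322 to 0.0809 and Mylip -0.13 to 0.0326; at E16.5 Nr1h2 -0.0224 to 0.125, Nr1h3 -0.197 to 0.109 and Apoe -0.0295 to 0.0688. At PND0 Apoe ran from -0.125 to 0.215, in the WT step of Abcg4 from -0.0414 to 0.0411 and in the average Apoe from -0.0794 to 0.0378.

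The count of all genes called was less stable. Leaving out 1 library moved it from 3 to between 1 and 5 at E12.5, from 94 to between 52 and 155 at E14.5, from 8 to between 3 and 14 at E16.5, from 250 to between 35 and 263 at PND0, from 5 to between 0 and 797 (without E12.5 KO replicate 1) for the interaction and from 109 to between 63 and 256 for the average. Other settings gave 2 to 52, 4 to 146, 3 to 233, 2 to 1205, 1 to 346 and 34 to 355 in the same order. Among same-numbered WT and KO libraries, 3 of 16 pairs had a correlation of deviations over 0.1 (-0.276 to 0.303). Only 2 KO libraries correlated best with their own number. The labels give no litter, and these correlations cannot exclude that same-numbered libraries share one. With the replicate block the all-gene counts were 6, 131, 5, 356, 1 and 90 in that order, and the member counts moved only in the WT steps, from 6 to 4 in the first and from 7 to 6 in the last.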
